A study of Mus musculus with 20 samples.

Results

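The p53 pathway of mouse brain progenitor lines was followed through Mdm2, Ccng1, Bbc3, Perp, Trp53inp1, Zmat3, Sesn1 and Phlda3, all known as transcriptional targets of p53. A list of 10 pathway genes was taken by name, and every probe set that the array's annotation assigned to a single one of them was used. These 8 genes had 16 such probe sets, among 18193 genes in all. Trp53, which encodes p53 itself, and Bax, a pore-forming death effector, were not analysed here, so the text describes p53 target transcripts and not p53. A gene with several probe sets is represented by the brightest of them over the 20 arrays.

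The transcription factor p53 is held low in unstressed cells by Mdm2, a ubiquitin ligase that marks it for degradation and that p53 itself induces, which closes a feedback loop. DNA damage, or an oncogene acting through the Arf product of Cdkn2a, frees p53 from Mdm2, and the stabilised factor then raises genes that stop the cell cycle, repair DNA, alter metabolism or start cell death. In the brain the pathway restrains the growth of neural and glial progenitors, and it is commonly lost or bypassed in glioma.

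Brain progenitor lines of the mouse were profiled on 20 Affymetrix arrays in 4 groups of 5. The groups were transduced embryonic progenitors, labelled as genetically modified, control embryonic progenitors, transformed postnatal progenitors and control postnatal progenitors. The labels name neither the introduced sequence nor the transforming agent, and they give no genotype, strain or exact age. Whether the 5 samples of a group are separate cultures is not stated, so a p-value here reflects sample-to-sample spread that may be no more than technical. The embryonic response means transduced minus control embryonic progenitors, and the postnatal response means transformed minus control postnatal progenitors. Postnatal against embryonic lines differ in age and in whatever else set the lines apart, and these cannot be told apart.

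Values are the deposited signals, a probe set's brightness with no unit, scaled so that all arrays share a trimmed mean near 2500.0. Differences are on the log2(signal + 16) scale, which understates the change of dim genes, and are given with the standard error (SE) of the fit. A gene passed the test at an adjusted p under 0.05 by limma with Benjamini-Hochberg adjustment over all 18193 genes, and it was called changed where it also differed by at least 2-fold. The background level was the 95th percentile of 27 bacterial control probe sets on each array and lay between 107 and 221.

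Oligodendrocyte progenitor markers were each above background on at least some arrays of every group. Their summed signal was 96840 to 106172 in transduced and 191383 to 216087 in control embryonic lines. In postnatal lines it was 201688 to 215246 in transformed and 235071 to 291447 in control samples. Olig1 and Olig2 were the brightest of them in every group. Pdgfra, Cspg4, Sox10 and Nkx2-2 were called lower in the embryonic response, and Olig1 and Olig2 passed as lower, short of 2-fold. Means in transduced against control embryonic lines were 596 against 7629 for Pdgfra, 189 against 2601 for Sox10 and 239 against 7800 for Nkx2-2. Nkx2-2 alone of these markers was called in the postnatal response, and it was lower. The 6 neuronal markers summed to 22863 to 24986 in transduced against 81977 to 87699 in control embryonic lines, and to 89867 to 95743 in transformed against 64853 to 79385 in control postnatal lines. All 6 were called lower in the embryonic response. In the postnatal one Gap43, Syt1 and Tubb3 were called higher, and Rbfox3 and Snap25 lower. Over all genes 8.61% were called higher and 5.74% lower in the embryonic response, and 9.56% and 6.40% in the postnatal one. The 6 fibroblast and pericyte markers summed to 3666 to 4644 in transduced and 9541 to 21599 in control embryonic lines. Among them only Acta2 was called in the embryonic response, with means of 2858 in transduced and 12604 in control lines. In postnatal lines the 5 oligodendrocyte markers summed to 27502 to 29892 after transformation and 36725 to 108315 in controls. Mbp, Mag and Cnp were called lower there, but none of them without control arrays 4 and 5. The 5 oligodendrocyte markers summed to 11060 to 14836 in transduced and 24138 to 28140 in control embryonic lines, where Cnp alone was called lower. Astrocyte and stem cell markers summed to 51347 to 58152 in transformed and 75729 to 112425 in control postnatal lines, where 3 of 6, Gfap, Aqp4 and Aldh1l1, were called lower, also without control arrays 4 and 5. Nes of the same list was called higher there (1.42 ± 0.36, adjusted p = 0.00251 by limma), but not without those 2 arrays. In embryonic lines the markers of that list summed to 57192 to 65672 in transduced and 65025 to 80594 in control samples. Slc1a3 and Aldh1l1 were called lower in the embryonic response, and none of the list was called higher. Gfap was below background in control embryonic lines. Aif1 and Itgam, which mark microglia, and Pecam1, which marks endothelium, were below background on all arrays. The other microglial and endothelial markers were above it on some arrays. Csf1r of microglia was above it on all arrays of every group. Kdr of endothelium was above it on all transduced embryonic and all transformed postnatal arrays. Control postnatal arrays 4 and 5 stood apart: the proliferation gene Mki67 had signals of 5403, 3955, 5099, 4123 and 3848 in transformed postnatal lines, against 37266, 34816, 35822, 5929 and 4351 in control postnatal lines. Mki67 lay between 27555 and 34283 in transduced and between 32101 and 37623 in control embryonic lines. RNA integrity was read from the 3′ over 5′ signal of the control transcripts Actb and Gapdh on the log2 scale. For Actb it was 0.39 to 0.45 in transduced and 0.30 to 0.35 in control embryonic lines. In postnatal lines Actb had 0.23 to 0.32 in transformed and 0.20 to 0.29 in control samples. For Gapdh it was -0.35 to -0.26 in transduced and -0.43 to -0.32 in control embryonic lines. Gapdh had -0.59 to -0.48 in transformed and -0.51 to -0.41 in control postnatal lines. Within an age, only the embryonic Actb ranges did not overlap. Between ages, the Actb ranges overlapped neither in control nor in modified lines, and the Gapdh ranges did not overlap in modified lines. In bulk RNA, fewer cells that express a gene and less RNA per cell cannot be told apart. The part of these shifts in the results for the p53 targets was not tested.

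RefSeq promoter windows of build GRCm38.p6, from 250 bases before to 50 after a gene's start, were given for 5 of the 8 genes, Mdm2, Bbc3, Ccng1, Sesn1 and Phlda3, with 8 starts in all. The windows were searched for the p53 half-site, the 10-base consensus that reads the same on both strands. It occurred in 8.36% of all 32851 windows, and it occurred once each in those of Mdm2, Ccng1 and the second start of Sesn1. A pair of half-sites separated by 0 to 13 bases occurred in 0.0731% of all windows and in 0 of the 8 windows here. The 250 bases before the start are shown for these 3 genes, with the half-site in capitals, and for the first start of Bbc3, the only one of the 4 that was called in the embryonic response and that has no half-site in the window.
Mdm2, chr10:117710759-117711008, minus strand: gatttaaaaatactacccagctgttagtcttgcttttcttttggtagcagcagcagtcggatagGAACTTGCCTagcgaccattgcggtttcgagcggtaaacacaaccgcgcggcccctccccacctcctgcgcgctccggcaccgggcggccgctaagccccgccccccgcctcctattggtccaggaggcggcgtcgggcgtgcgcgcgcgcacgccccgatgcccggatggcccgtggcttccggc
Ccng1, chr11:40755287-40755536, minus strand: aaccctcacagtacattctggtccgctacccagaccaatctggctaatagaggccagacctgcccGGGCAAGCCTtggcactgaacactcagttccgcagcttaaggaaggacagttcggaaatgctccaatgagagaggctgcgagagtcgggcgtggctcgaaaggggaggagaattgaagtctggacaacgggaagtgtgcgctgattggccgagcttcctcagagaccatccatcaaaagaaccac
Sesn1, chr10:41887189-41887438, plus strand: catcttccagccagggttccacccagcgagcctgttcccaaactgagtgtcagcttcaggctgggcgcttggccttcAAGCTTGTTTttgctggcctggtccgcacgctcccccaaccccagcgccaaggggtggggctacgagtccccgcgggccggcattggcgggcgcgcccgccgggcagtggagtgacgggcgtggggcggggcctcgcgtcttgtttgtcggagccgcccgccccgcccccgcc
Bbc3, chr7:16309333-16309582, plus strand: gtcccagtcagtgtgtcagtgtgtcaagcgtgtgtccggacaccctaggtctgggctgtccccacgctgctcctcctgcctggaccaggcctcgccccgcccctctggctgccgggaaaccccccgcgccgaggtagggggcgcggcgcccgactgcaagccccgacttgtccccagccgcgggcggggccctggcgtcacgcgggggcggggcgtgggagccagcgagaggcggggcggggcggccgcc

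The half-site began 186 bases before the Mdm2 start, 185 before the Ccng1 start and 173 before the second Sesn1 start. GC boxes (GGGCGG, or CCGCCC on the other strand) occurred in 35.7% of all windows and in those of Bbc3, Mdm2, Phlda3 and Sesn1. The Ccng1 window held no GC box and had a GC content of 55.7%, against 64.7% for Mdm2 and 76% for the first Bbc3 start. A match describes the letters of the window and is not evidence of binding, and no match says only that these letters are not in it.

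In embryonic lines, 6 of the 8 genes passed the test and all 6 were higher after transduction: Mdm2, Ccng1, Bbc3, Perp, Zmat3 and Phlda3. Over all genes 39.4% passed. Bbc3 and Perp were called, 2 genes against a background of 14.4%, with 8.61% of all genes called higher and 5.74% called lower. Trp53inp1 and Sesn1 did not pass. The 8 log2 differences had a median of 0.49, against 0.08 over all genes, and ran from -0.18 for Trp53inp1 to 2.66 for Perp. The share of higher among called genes was 60.02% with the deposited scaling, 51.17% after quantile normalization and 53.62% with each array centred on its 75th percentile.

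In postnatal lines the genes moved in both directions. Of the 8, 5 passed the test, against 42.3% of all genes: Bbc3 was higher after transformation, and Ccng1, Zmat3, Perp and Sesn1 were lower. Zmat3 and Sesn1 were called lower, 2 genes against a background of 16%, with 9.56% of all genes called higher and 6.40% called lower. The median over the 8 genes was -0.47, against -0.0024 over all genes. Without control arrays 4 and 5, Zmat3 alone was called, against a background of 16.5% (9.25% higher and 7.26% lower), and Sesn1 had a log2 difference of -0.998, just short of the 2-fold limit.

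The difference between the responses was tested directly. It passed for 6 of the 8 genes, against 38.9% of all genes, and in all 6, Ccng1, Bbc3, Perp, Zmat3, Sesn1 and Phlda3, the postnatal response was below the embryonic one. Ccng1, Zmat3, Perp and Sesn1 differed by at least 2-fold, 4 genes against a background of 19.1%. The median difference was -1.02 on the log2 scale, against -0.07 over all genes. Ccng1 and Zmat3 passed in both responses with opposite signs, as did Perp with all groups in the fit, and Bbc3 was higher in both. In Mdm2 the difference of the responses was -0.35 ± 0.17 (adjusted p = 0.104), which passed without transduced replicate 1, control embryonic replicate 2 or control postnatal replicate 1 (Mdm2 at -0.45, -0.42 and -0.42, adjusted p = 0.0235, 0.0463 and 0.0462), and in Trp53inp1 it was 0.0043 ± 0.12 (adjusted p = 0.984).

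**Figure D1:**
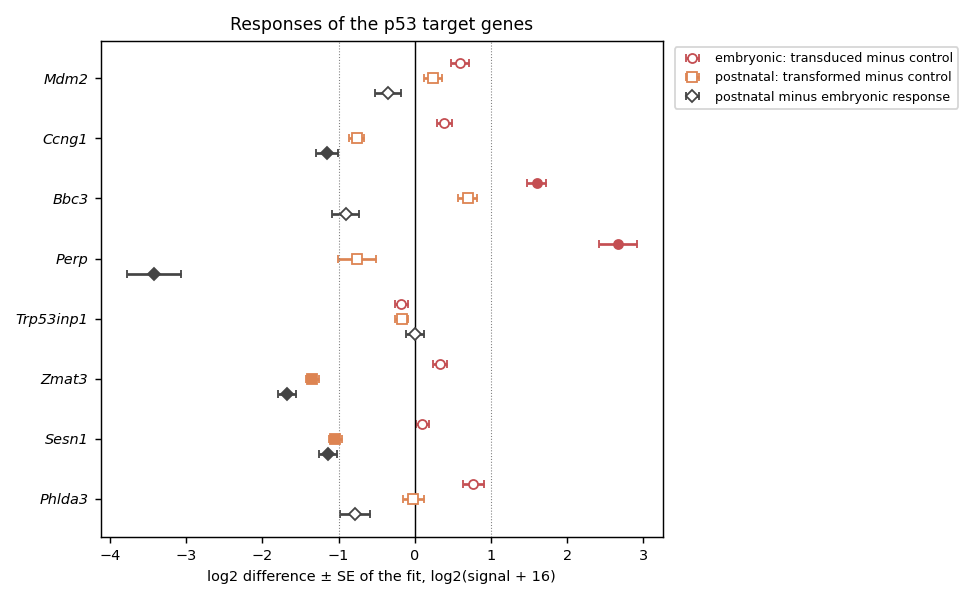
Log2 difference with its SE for each of the 8 genes in the embryonic response (transduced minus control), the postnatal response (transformed minus control) and the postnatal minus the embryonic response. Filled symbols were called and dotted lines mark 2-fold; the largest difference between responses is that of Perp at -3.43, and Trp53inp1 lies between -0.18 and 0.0043.

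Between ages, 5 of the 8 genes passed in control lines, against 32.0% of all genes, and all 5, Bbc3, Ccng1, Trp53inp1, Zmat3 and Phlda3, were higher in postnatal than in embryonic lines. Bbc3 was called, 1 gene against a background of 10.6%. In modified lines 6 of 8 passed, against 52.1% of all genes: Bbc3 and Trp53inp1 were higher in transformed postnatal than in transduced embryonic lines, and Ccng1, Zmat3, Perp and Sesn1 were lower. Perp was called in that comparison, 1 gene against a background of 25.5%. Quantile normalization moved the median of all genes in the modified comparison to 0.0011, against -0.14 with the deposited scaling, and in the difference of the responses to 0.04, against -0.07. The comparisons share groups: the control lines enter the responses as well as the control age comparison.

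Mdm2, the ligase and feedback inhibitor of p53, was higher in transduced embryonic lines. Its signal was 5435, 6989, 8326, 7029 and 8068 in transduced embryonic lines, against 4009, 5732, 4735, 4525 and 4707 in control embryonic lines. The groups overlapped by 1 array on each side, the lowest transduced array lying below the highest control. The log2 difference was 0.59 ± 0.12 (adjusted p = 2.97e-04), a 1.5-fold higher signal. In postnatal lines Mdm2 had 7698, 6821, 6313, 6517 and 6507 in transformed samples, against 4730.1, 5205, 5675, 6192 and 7143 in control samples. Here too the groups overlapped, and the highest controls were arrays 4 and 5. The postnatal difference of 0.24 ± 0.12 did not pass (adjusted p = 0.118), and it was 0.38 ± 0.12 without control arrays 4 and 5 (adjusted p = 0.0105) and 0.32 without array 5 alone (adjusted p = 0.0305). The mean of all 3 probe sets, of which 1 was below background throughout, gave 0.44 in embryonic lines and did not pass (adjusted p = 0.176). Across ages, Mdm2 differed by 0.28 in control lines (adjusted p = 0.0734, or 0.0289 without control embryonic replicate 2 and 0.0267 without control postnatal replicate 1) and by -0.07 in modified lines (adjusted p = 0.657), so in mean signal transduced embryonic lines came first at 7169 ± 1141 (SD, n = 5), followed by transformed postnatal lines at 6771 ± 549, control postnatal lines at 5789 ± 931 and control embryonic lines at 4742 ± 626, with no pair of neighbours separated beyond overlap.

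Ccng1 encodes cyclin G1, an unconventional cyclin that takes a phosphatase to Mdm2 and so also acts back on p53. Its signal in transduced embryonic lines was 23792, 22913, 24872, 21306 and 20424, against 19099, 14056, 18258, 17147 and 18244 in control embryonic lines. All transduced arrays were above all control arrays. Transformed postnatal lines had 16579, 17096, 15839.5, 18863 and 17010.0, against 29771, 37301, 30561, 23820.2 and 25326 in control postnatal lines. There all transformed arrays were below all controls, and controls 4 and 5 were the lowest of their group. The embryonic difference was 0.39 ± 0.10 (adjusted p = 0.00333) and the postnatal one -0.77 ± 0.10 (adjusted p = 1.52e-06), or -0.92 without control arrays 4 and 5. Control postnatal lines were 0.75 above control embryonic ones on the log2 scale (adjusted p = 5.26e-06), and transformed postnatal lines were 0.41 below transduced embryonic ones (difference -0.41, adjusted p = 0.00154). Control postnatal lines thus held the highest mean and transduced embryonic lines the next, while the transformed postnatal mean of 17077 ± 1115 and the control embryonic mean of 17361 ± 1973 (SD, n = 5 each) lay within each other's spread. The first 2 groups overlapped, with control postnatal array 4 below transduced embryonic array 3, and they were not compared by a test.

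Bbc3 encodes Puma, a Bcl2 family protein that sets off cell death at mitochondria, and it was higher in both modified groups. Transduced embryonic lines had 2332, 2820.4, 2347, 2486 and 2065, against 654, 633, 962, 786 and 914 in control embryonic lines. Transformed postnatal lines had 2672, 3276, 2869.7, 3246 and 3224, against 1597, 1812, 1844, 2156 and 2013 in control postnatal lines. In neither age did the groups overlap. The embryonic difference of 1.60 ± 0.12 was 3.04-fold (adjusted p = 6.77e-10), and the postnatal one of 0.70 ± 0.12 was 1.62-fold (adjusted p = 7.82e-05). The postnatal response was smaller by 0.91 on the log2 scale (difference -0.91 ± 0.18, adjusted p = 2.35e-04). Control postnatal lines were 1.25 above control embryonic lines (adjusted p = 8.72e-08), and transformed postnatal lines were 0.34 above transduced embryonic ones (adjusted p = 0.0243). That last difference missed the test without transduced replicate 5 (0.29, adjusted p = 0.0705) or transformed replicate 2, 4 or 5 (Bbc3 at 0.32 each, adjusted p = 0.0573, 0.0549 and 0.0537). The order of the means was transformed postnatal, transduced embryonic, control postnatal and control embryonic, at 3057 ± 272, 2409.9 ± 276, 1884 ± 212 and 789.9 ± 149 (SD, n = 5 each), with an overlap of single arrays between neighbours in the first 3.

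Perp encodes a membrane protein of desmosomes that takes part in p53-dependent cell death, and it had the largest embryonic difference of the 8. Its signal was 1758, 2319, 2277, 1999 and 1650.1 in transduced embryonic lines, against 217, 329, 326, 233 and 438 in control embryonic lines. The groups were far apart, by 2.66 ± 0.25 on the log2 scale or 6.34-fold (adjusted p = 1.6e-08). Transformed postnatal lines had 73.2, 202, 173, 166 and 144, against 242, 297, 303, 255 and 199 in control postnatal lines. Only 3 of the 5 transformed arrays were above their background level, and the highest of them was level with the lowest control. The postnatal difference was -0.76 ± 0.25 (adjusted p = 0.0182), which passed but was not called. It missed the test with only the 2 postnatal groups in the fit (adjusted p = 0.0644) and without transformed replicate 1, where Perp differed by -0.55 (adjusted p = 0.0632). The difference between the responses was -3.43 ± 0.36 (adjusted p = 8.25e-08). Control lines of the 2 ages differed by -0.21 (adjusted p = 0.591), and modified lines by -3.64 (adjusted p = 4.31e-11). Transduced embryonic lines stood alone at the top with a mean of 2001, and transformed postnatal, control postnatal and control embryonic lines had means of 152, 259 and 309, near the background level.

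Trp53inp1 encodes a stress-induced nuclear protein that promotes p53-driven death and autophagy, and it was higher in postnatal than in embryonic lines. Transduced embryonic lines had 14679.7, 13240.3, 13834, 11904 and 11847, against 13772, 14089.8, 16456, 16263 and 13463 in control embryonic lines. Transformed postnatal lines had 23462, 20637, 22270.4, 22288 and 24306, against 23058, 25380.3, 30009, 27595 and 21888 in control postnatal lines. The groups of each age overlapped, whereas all 10 postnatal arrays were above all 10 embryonic ones. The responses were -0.18 ± 0.09 in embryonic lines (adjusted p = 0.114) and -0.17 ± 0.09 in postnatal lines (adjusted p = 0.117). For Trp53inp1 the postnatal response passed without control replicate 5 (-0.23, adjusted p = 0.0356), and the embryonic one passed with 75th percentile centring (-0.27, adjusted p = 0.0153). Postnatal lines were higher by 0.78 among controls (adjusted p = 3.12e-07) and by 0.79 among modified lines (adjusted p = 5.27e-08). The levels thus separated postnatal from embryonic lines, and the neighbours within an age overlapped.

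Zmat3 encodes a zinc finger protein that binds RNA and regulates the stability and splicing of p53 pathway transcripts. Its signal was 11663, 10652, 11204, 9169 and 10779.9 in transduced embryonic lines, against 8420.4, 9510.4, 9444, 6485 and 8884 in control embryonic lines, with an overlap at a single transduced array. In postnatal lines it was 5982, 6489.7, 5974, 6328 and 6734 in transformed samples, against 14778, 16813, 16811, 16193 and 15659 in control samples. The transformed and control postnatal arrays formed tight groups far apart. The embryonic difference was 0.33 ± 0.09 (adjusted p = 0.00369), and the postnatal one was -1.35 ± 0.09 (adjusted p = 3.11e-11), 2.54-fold lower after transformation. Arrays 4 and 5 of the control group did not stand apart for Zmat3, and without them the value was again -1.35. The difference between the responses was -1.68 ± 0.12 (adjusted p = 3.84e-10). The means were 10693 ± 940.0 in transduced and 8549 ± 1236 in control embryonic lines, and 6301 ± 329 in transformed and 16051 ± 859 in control postnatal lines (SD, n = 5 each). From high to low the order was control postnatal, transduced embryonic, control embryonic and transformed postnatal, with age differences of 0.92 in control lines (adjusted p = 4.07e-08) and -0.76 in modified lines (adjusted p = 1.22e-07).

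Sesn1 encodes a sestrin, a stress protein that restrains TOR growth signalling and limits oxidative damage. It had signals of 5758, 5135, 5205, 4557 and 5782 in transduced embryonic lines, against 4888, 4328, 5552, 5206 and 4714 in control embryonic lines. Those groups overlapped widely, with a difference of 0.10 ± 0.09 (adjusted p = 0.416). Transformed postnatal lines had 2693, 2601, 3086, 2406 and 2436, against 5603, 4995, 5246, 5586 and 5877 in control postnatal lines. All transformed arrays lay below all controls, by -1.05 ± 0.09 on the log2 scale or 2.06-fold (adjusted p = 1.25e-09). The postnatal minus embryonic response was -1.14 ± 0.12 (adjusted p = 9.17e-08). Transformed postnatal lines were the low group: control lines of the 2 ages differed by 0.15 (adjusted p = 0.207), while transformed postnatal lines were below transduced embryonic ones by -0.996 (adjusted p = 1.25e-09), just short of 2-fold. Leaving out transduced embryonic replicate 2 or 4, or transformed postnatal replicate 1 or 3, gave log2 differences for Sesn1 of -1.005, -1.048, -1.004 and -1.052, which were called.

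Phlda3 encodes a small membrane-binding protein that competes with the kinase Akt for membrane lipids and so limits survival signalling. Its signal was 6724, 6394, 6255, 7436 and 5878 in transduced embryonic lines, against 3663, 3626, 3869, 3671 and 4301 in control embryonic lines. No arrays overlapped, and the difference was 0.77 ± 0.14 or 1.70-fold (adjusted p = 8.15e-05). In postnatal lines it was 6767, 6115, 6277, 6209 and 6584 in transformed samples, against 6917, 9221, 7896, 4582 and 4908 in control samples. The transformed arrays fell between control arrays 1 to 3, all higher, and arrays 4 and 5, both lower. The postnatal difference was -0.02 ± 0.14 (adjusted p = 0.936), and it was -0.32 ± 0.09 without control arrays 4 and 5 (adjusted p = 0.00415). The difference between the responses was -0.79 ± 0.19 (adjusted p = 0.00215), or -1.09 and then called without those arrays, which raises the genes called in the difference to 5. Control postnatal lines were 0.76 above control embryonic ones (adjusted p = 1.71e-04) and 1.06 above them without arrays 4 and 5, which made that difference a called one. Transformed postnatal and transduced embryonic lines differed by -0.03 (adjusted p = 0.881), so control embryonic lines were the low group, the means being 6537 ± 587 in transduced and 3826 ± 282 in control embryonic lines (SD, n = 5 each).

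**Figure D2:**
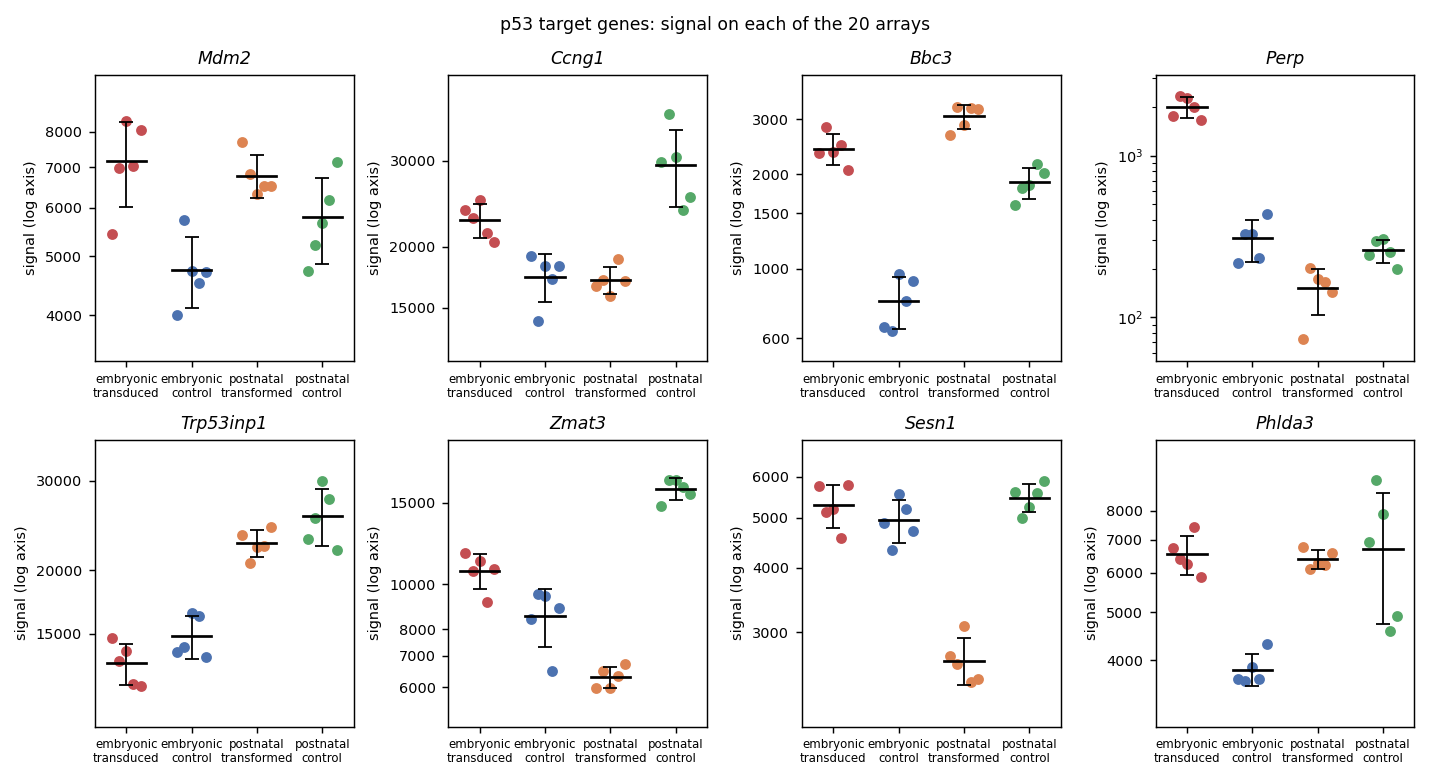
Signal of each of the 8 genes on each of the 20 arrays (log axis, 1 panel a gene), with the 4 groups side by side, bars at the mean and whiskers of 1 SD (n = 5). Bbc3 and Perp are separated between transduced and control embryonic lines, Zmat3 and Sesn1 are low in transformed postnatal lines, and Trp53inp1 is higher at the postnatal age in both kinds of line.

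Within the control postnatal group, arrays 4 and 5 differed from arrays 1 to 3 in some of the genes only. Phlda3 and Ccng1 were lower on arrays 4 and 5 than on each of the other 3. Mdm2 and Bbc3 were higher there, with log2 deviations from the group mean of 0.11 and 0.32 for Mdm2 and 0.20 and 0.10 for Bbc3. In Zmat3 the same arrays were at 0.01 and -0.03. The arrest gene Cdkn1a, which encodes the cyclin-dependent kinase inhibitor p21, moved with Phlda3 and Ccng1: its signal was 36196, 31469, 32950.3, 29034 and 37266 in transformed lines, against 12683, 26071, 16904, 2689 and 2959 in control postnatal lines.

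**Figure D3:**
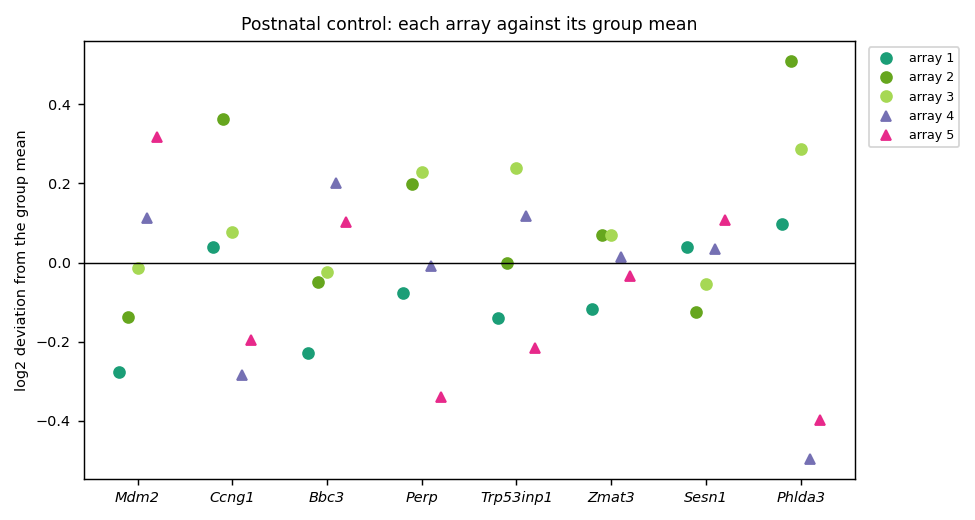
Log2 deviation of each control postnatal array from the mean of its group of 5, for each of the 8 genes (circles for arrays 1 to 3, triangles for arrays 4 and 5). Phlda3 spreads from -0.50 on array 4 to 0.51 on array 2, and Zmat3 from -0.12 to 0.07.

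Other probe sets of the same genes gave the following, with p adjusted over all probe sets. All 3 Ccng1 probe sets were higher in transduced embryonic lines (0.39, 0.58 and 0.30) and lower in transformed postnatal lines (-0.77, -0.73 and -0.72). A second Mdm2 probe set differed by 0.33 in embryonic lines (adjusted p = 0.00344) and by 0.28 in postnatal lines (adjusted p = 0.0102), whereas the remaining one was below background on all 20 arrays. Of the Sesn1 probe sets, 2 others fell after postnatal transformation by -1.03 and -0.89, and the last, above background on 14 of the 20 arrays, had 0.12 (adjusted p = 0.866). That dim Sesn1 probe set was 1.18 higher in transduced embryonic lines (adjusted p = 0.0391), unlike the brighter ones. The second Trp53inp1 probe set had -0.14 in embryonic and -0.04 in postnatal lines, neither of which passed. Bbc3, Perp, Zmat3 and Phlda3 had 1 probe set each.

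Other genes of the pathway were taken from lists of known p53 targets and regulators. Over all genes, 8.61% were called higher and 5.74% lower in the embryonic response, with a median of 0.08, and 9.56% higher and 6.40% lower in the postnatal one, with a median of -0.0024. At an unadjusted p under 0.05, 24.7% of all genes were higher and 20.4% lower in embryonic lines, and 23.2% higher and 24.4% lower in postnatal lines. Among 13 targets that act in arrest and DNA repair, 5 were called higher and 0 lower in the embryonic response, and 4 higher and 3 lower in the postnatal one. By limma's unadjusted p under 0.05, 6 were higher and 1 lower in embryonic lines (24.7% and 20.4% over all genes). In postnatal lines 6 were higher and 3 lower by that measure (23.2% and 24.4% over all genes). Their medians were 0.19 and 0.20. Polk, a polymerase that copies past DNA lesions, averaged 4124 ± 358 in transduced and 1049 ± 172 in control embryonic lines, 3.92-fold higher (adjusted p = 3.1e-09). Plk3, a polo-like stress kinase, was 1.34 ± 0.21 higher there on the log2 scale (adjusted p = 1.44e-05), and Sesn2, a relative of Sesn1, was 0.95 ± 0.12 higher (adjusted p = 1.32e-06), short of 2-fold. Btg2, an antiproliferative protein, was called in both responses with opposite signs, at 1.09 ± 0.15 in embryonic (adjusted p = 4.95e-06) and -1.47 ± 0.15 in postnatal lines (adjusted p = 6.2e-08). Gadd45a, a growth arrest and repair protein, was 2.01 ± 0.22 higher in transformed postnatal lines (adjusted p = 8.91e-08), Rrm2b, a ribonucleotide reductase subunit, was 0.99 ± 0.08 higher and not called (adjusted p = 1.89e-09), and Rprm, an arrest protein, was lower by -1.21 ± 0.10 (adjusted p = 1.89e-09). Cdkn1a was called higher in both, at 2.25 ± 0.42 (adjusted p = 1.48e-04) and 1.96 ± 0.42 (adjusted p = 5.51e-04). Without control postnatal arrays 4 and 5 the postnatal counts were 3 higher and 3 lower, with Cdkn1a and Plk2 lost and Rrm2b gained.

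Among 11 targets that act in cell death, 3 were called higher and 0 lower in embryonic lines, with a median of 0.45. At limma's unadjusted p under 0.05 the counts were 5 and 0, where 24.7% of all genes were higher and 20.4% lower. Over all genes 8.61% were called higher and 5.74% lower, with a median of 0.08. In postnatal lines 2 were called higher and 3 lower, where 9.56% of all genes were called higher and 6.40% lower. The median there was -0.69, or -0.68 with dim genes at their bound. At limma's unadjusted p under 0.05, 2 were higher and 5 lower there, where 23.2% and 24.4% of all genes were. Bid, a Bcl2 family protein cut by caspases, was called higher in both, at 1.92 ± 0.08 in embryonic (adjusted p = 8.06e-15) and 1.14 ± 0.08 in postnatal lines (adjusted p = 4.66e-11). Pmaip1, which encodes the death protein Noxa, averaged 5834 ± 577 in transduced and 1352 ± 184 in control embryonic lines, 4.29-fold higher (adjusted p = 2.84e-05). Tnfrsf10b, a death receptor, averaged 653 in transduced against 119 in control embryonic lines, of which only 2 of 5 arrays were above background (adjusted p = 0.00106). Dram1, a lysosomal protein of autophagy, was 0.91 ± 0.28 higher there and not called (adjusted p = 0.0127). Eda2r, a receptor of the tumour necrosis factor family, averaged 886 ± 95.8 in transformed and 5876 ± 2144 in control postnatal lines, 6.20-fold lower (adjusted p = 9.59e-11). The nuclease Aen was lower by -1.47 ± 0.12 (adjusted p = 1.03e-09), and Apaf1, the core of the apoptosome, by -0.98 ± 0.12, short of 2-fold (adjusted p = 9.16e-07). Without control postnatal arrays 4 and 5 the counts were 1 higher and 6 lower, with Dram1 lost among the higher and Pmaip1, Apaf1 and Siva1 gained among the lower.

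Of 14 targets in metabolism, secretion and the cell membrane, 10 were measured. In embryonic lines 3 were called higher and 2 lower, and in postnatal lines 3 higher and 0 lower, also without control arrays 4 and 5, where Cd82 took the place of Ephx1. The shares over all genes were 8.61% and 5.74% in embryonic and 9.56% and 6.40% in postnatal lines. At limma's unadjusted p under 0.05, 7 were higher and 0 lower in postnatal lines, where 23.2% and 24.4% of all genes were. In embryonic lines 3 were higher and 3 lower by that measure, where 24.7% and 20.4% of all genes were. The medians were 0.01 and 0.52, the second 0.38 with dim genes at their bound. Igfbp3, a binding protein of insulin-like growth factors, was called in opposite directions: it averaged 8349 ± 1094 in transduced and 26965 ± 2234 in control embryonic lines, against 69410 ± 4415 in transformed and 9909 ± 4845 in control postnatal lines, with adjusted p = 3.6e-07 and 6.47e-11. Epha2, an ephrin receptor, averaged 1115 in transduced embryonic lines against 196 in controls with 2 of 5 arrays above background (adjusted p = 2.75e-05), and was at least 1.30-fold higher in transformed than in control postnatal lines, where all 5 controls were below background (adjusted p = 8.08e-05). The tetraspanin Cd82 and the lipid transfer protein Pltp were 1.97 ± 0.29 (adjusted p = 9.75e-06) and 1.05 ± 0.20 (adjusted p = 2.03e-04) higher in transduced embryonic lines. In transformed postnatal lines Ephx1, an epoxide hydrolase, was 1.74 ± 0.34 higher (adjusted p = 1.96e-04), and Rap2b, a small GTPase, 0.38 ± 0.10 (adjusted p = 0.00397), which was not called.

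Among 23 measured regulators of p53, 2 were called higher and 1 lower in embryonic lines, and 1 higher and 3 lower in postnatal lines, with medians of 0.12 and -0.38. Over all genes 8.61% and 5.74% were called in embryonic and 9.56% and 6.40% in postnatal lines, so these counts are near the background. By adjusted p alone, 8 were higher and 5 lower in embryonic lines, where 21.3% and 18% of all genes were, and 3 higher and 17 lower in postnatal lines, where 20.3% and 22% were. Cdkn2a, whose Arf product blocks Mdm2 and whose other product inhibits cyclin-dependent kinases, had the largest difference of them in both. Its signal was 14994, 11852, 11176, 10870.1 and 12489 in transduced embryonic lines, against 323, 296, 256, 177 and 383 in controls, and 15886, 17429, 19481, 15609 and 17527 in transformed postnatal lines, against 399, 808, 1104, 422 and 352 in controls. The groups were far apart at both ages, and 1 control embryonic array was below background. Which of its products the Cdkn2a probe set measures was not analysed here. Ppp1r13b, a p53 cofactor that favours death genes, was 1.71 ± 0.16 higher in transduced embryonic lines (adjusted p = 2.02e-08), and Hipk2, a kinase that phosphorylates p53, was lower by -1.60 ± 0.14 (adjusted p = 3.53e-09). Mdm4, the partner of Mdm2 that holds p53 inactive, differed by 0.64 ± 0.08 in embryonic (adjusted p = 9.32e-07) and -0.83 ± 0.08 in postnatal lines (adjusted p = 1.63e-08), neither reaching 2-fold. Ppm1d, a phosphatase that switches p53 signalling off, was lower by -1.16 ± 0.10 in transformed postnatal lines (adjusted p = 4.59e-09), as was Usp10, which removes ubiquitin from p53, by -0.69 ± 0.05 without being called (adjusted p = 9.39e-10). Without control postnatal arrays 4 and 5 the postnatal counts were 1 higher and 4 lower, with Atm and Chek2 gained and Hipk2 lost.

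Among 11 relatives of the genes described, 1 was called higher and 0 lower in embryonic lines, and 1 higher and 2 lower in postnatal lines, with or without control arrays 4 and 5. These counts are near the shares over all genes of 8.61% and 5.74% in embryonic and 9.56% and 6.40% in postnatal lines. The medians were 0.08 and -0.18. At limma's unadjusted p under 0.05, 5 were higher and 1 lower in embryonic lines, where 24.7% and 20.4% of all genes were. In postnatal lines 3 were higher and 4 lower by that measure, where 23.2% and 24.4% of all genes were. Phlda2, a relative of Phlda3 known for limiting placental growth, averaged 959 in transduced embryonic lines and was below background in all 5 controls, at least 5.28-fold higher (adjusted p = 5.92e-08). Ccng2, the relative of Ccng1, was 0.93 ± 0.10 higher there (adjusted p = 4.92e-08), and Trp53inp2, an autophagy protein related to Trp53inp1, differed by -0.94 ± 0.09 (adjusted p = 4.36e-08), neither of them called. In transformed postnatal lines Phlda1 was 2.22 ± 0.29 higher (adjusted p = 1.41e-06), Bok, a relative of Bax, was lower by -1.64 ± 0.13 (adjusted p = 4.41e-10), and Trp53inp2 was 0.74 ± 0.09 higher and not called (adjusted p = 1.14e-06).

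Of 19 measured Bcl2 family members, caspases and their partners, 4 were called higher and 0 lower in embryonic lines, with a median of 0.09, and 2 higher and 2 lower in postnatal lines, with a median of 0.02. Over all genes 8.61% were called higher and 5.74% lower in embryonic lines, and 9.56% and 6.40% in postnatal lines, to which the postnatal counts are near. Without adjustment limma gave 5 higher and 4 lower in embryonic lines at p under 0.05, where 24.7% and 20.4% of all genes were. In postnatal lines it gave 6 higher and 6 lower, where 23.2% and 24.4% of all genes were. This list shares Bid, Pmaip1, Apaf1, Bok and Bak1 with the other lists, and Mdm4 and Sesn2 also stand on 2 lists. Bcl2l11, which encodes the death protein Bim, averaged 13009 ± 1753 in transduced and 2513 ± 169 in control embryonic lines, 5.12-fold higher (adjusted p = 4.04e-10). Casp9, the caspase activated by Apaf1, was 2.25 ± 0.13 higher there (adjusted p = 8.47e-12), and Bad, another death protein of the family, differed by -0.92 ± 0.09 and was not called (adjusted p = 2.56e-08). The survival gene Bcl2l1 averaged 6582 ± 460 in transformed and 2391 ± 225 in control postnatal lines, 2.75-fold higher (adjusted p = 4.17e-11). Without control postnatal arrays 4 and 5 the lower count was 4, with Pmaip1 and Apaf1 gained.

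Among 14 proliferation genes, 0 were called in the embryonic response by limma, and 0 passed either its adjusted p or its unadjusted p under 0.05. Their summed signal was 338033 to 396302 in transduced and 415154 to 455559 in control embryonic lines, with no overlap, and the spread of the fit includes control postnatal arrays 4 and 5. In the postnatal response 0 were called higher and 11 lower (0 and 13 at an unadjusted p under 0.05), or 14 lower without control arrays 4 and 5. In postnatal lines the sum was 89877 to 107486 in transformed and 95903 to 385373 in control postnatal lines. The part of the cycling level in the p53 target results was not tested.

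**Figure D4:**
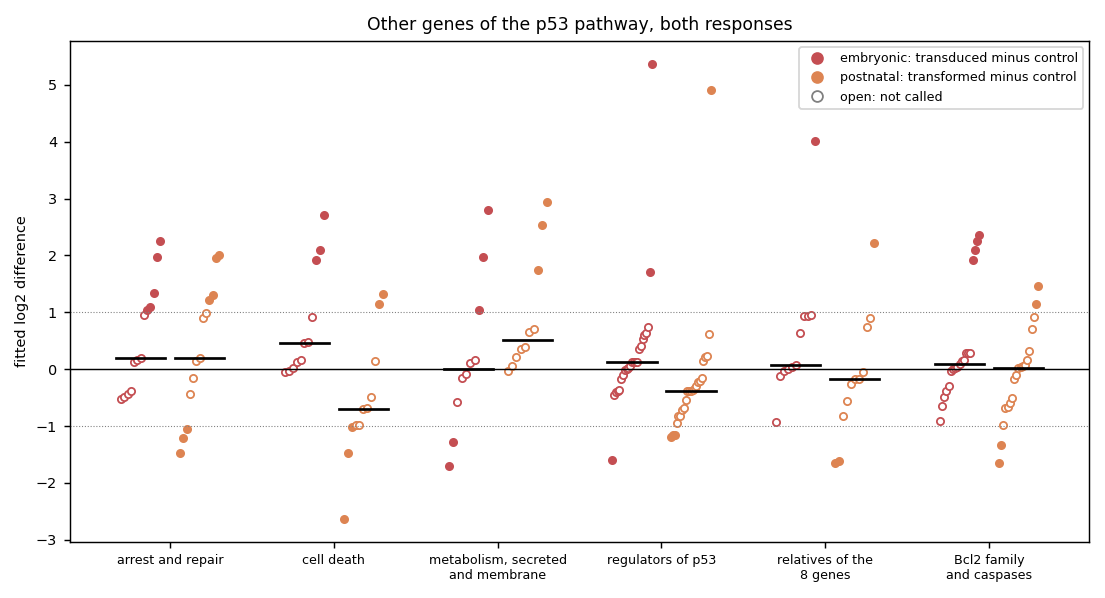
Log2 difference of every measured gene of the 6 other pathway lists in the embryonic response (transduced minus control) and the postnatal response (transformed minus control). Each circle is a gene, filled where it was called, bars mark the median and dotted lines mark 2-fold; the cell death targets have medians of 0.45 in embryonic and -0.69 in postnatal lines.

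For each of the 8 genes, the genes with the most similar pattern were found by the root mean square difference of log2 values, each centred on its own mean, over 20 arrays and among 10839 genes with a mean signal over 500. Sesn1 was closest to Kdm1a (0.10), Asxl1 (0.11) and Slmap (0.12), against a spread of 0.44 for Sesn1 itself. Mdm2, with a spread of 0.29, was closest to Mydgf (0.13), Gas5 and Tsnax (both 0.14). Trp53inp1 came closest to Kifap3 (0.15), Arpc5 and Atp6v0e2 (both 0.16). Zmat3 was nearest to Ddx41 (0.19), Fndc4 (0.21) and Peli2 (0.22), with a spread of its own of 0.51. Ccng1 had Prxl2a (0.19), Mtcl1 (0.20) and Ripor1 (0.21) as its nearest genes, and Phlda3 had Ak1 (0.21), Fbn2 and Hint3 (both 0.22). For Bbc3 the nearest were Gaa (0.23), Mfsd13a (0.24) and Atp11a (0.24), and for Perp, whose own spread was 1.41, they were Ccdc136 (0.41), Socs3 (0.43) and Hey1 (0.44). None of the 8 had another of the 8 among its nearest 3.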

How the data were processed

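The deposited values were linear intensities, 1 per probe set and array (software and background correction: not given in the sources used here). Of 45101 probe sets, 34945 had 1 symbol in the annotation supplied and 932 had several. The trimmed mean (2% cut at each end) was 2500.01 to 2500.02 on all arrays, so the deposited intensities were used as they are. No 2 of the 20 arrays were identical. A linear model of 4 group means on log2(signal + 16) was fitted with limma 3.58.1 (eBayes with intensity trend) in R 4.3.3, two-sided, and tested on simulated data. Tables were read with data.table (version 1.17.8), and sequences and figures handled with Python 3.11.15, pandas 2.3.3 and matplotlib 3.10.9. With arrays, their number (5 a group) limits the precision.

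The 10 genes and all lists were chosen with earlier results of these data known, so they are no independent support for a direction. The text names all measured genes of the 10, up to 4 genes with the smallest p per list and response, the 3 nearest genes by pattern and Mki67 of the proliferation list; Cdkn1a was added with its values known, markers as defining genes, and Plk2, Siva1, Atm and Chek2 because they entered or left a count, and Bak1 for list overlap. Alternatives covered the offset, normalization, filter, probe set rule, variance trend, fold limit, groups in the fit, replicate block and arrays left out.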

Additional observations from a re-analysis of the deposited data

Results flagged for a closer look

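The response of 6 genes differed between ages by the interaction term of limma. The postnatal minus the embryonic response was -0.91 for Bbc3, -1.15 for Ccng1, -1.68 for Zmat3, -3.43 for Perp, -1.14 for Sesn1 and -0.79 for Phlda3 on the log2 scale. Ccng1 and Zmat3 passed with opposite signs in the 2 ages, and so did Perp, whose postnatal response missed the test with 2 groups in the fit (adjusted p = 0.0644 by limma). Sesn1 passed in postnatal and not in embryonic lines. Phlda3 passed in embryonic lines (0.77), and in postnatal lines it passed only without control arrays 4 and 5 (-0.32, adjusted p = 0.00415). Among 32 groups of 5 arrays, 4 for each of the 8 genes, 0 had an array set apart by Dixon's test, which chance would give in about 1 of 20 groups. The test sets 1 extreme array against its nearest neighbour, so it can miss 2 arrays that deviate together. Control postnatal arrays 4 and 5 lay together in this way for Phlda3, at 4582 and 4908.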

How the results depend on the processing

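Of 896 values of single genes recomputed under other settings, 853 kept their direction and their side of the call (adjusted p and 2-fold), 24 were newly called, 2 no longer were and 17 changed sign. Most of the newly called values came from dropping the fold limit, where by definition every value that passes is called. By adjusted p alone 10 newly passed and 7 no longer did. Without the fold limit, 7162 genes were called in the embryonic response, 7692 in the postnatal one, 7083 in their difference, 5830 in the control and 9479 in the modified age comparison, with 6, 5, 6, 5 and 6 of the 8 p53 targets. With every probe set on its own the numbers of calls were 5137, 5650, 7054, 3464 and 9148, and 7 and 2 of the 16 probe sets were called in the difference and in the modified age comparison. The mean of all probe sets left 1 call in the postnatal response, since Sesn1 came to -0.71, and it gave -0.065 for Mdm2 there and 0.44 in the embryonic response, which no longer passed (adjusted p = 0.176). Leaving out control postnatal arrays 4 and 5 gave 1 p53 target in the postnatal response, 5 in the difference and 2 in the control age comparison, and -0.028 for Trp53inp1 in the difference. Leaving out single arrays gave 1 to 2 calls in the modified age comparison. The other values that changed sign were small: quantile normalization gave 0.0012 for Phlda3 in the postnatal response and -0.072 for Trp53inp1 in the difference, and 75th percentile centring gave 0.037 for Phlda3 in the modified age comparison. Leaving out single arrays gave -0.066 to 0.018 for Phlda3 in the modified age comparison, -0.14 to 0.11 for Phlda3 in the postnatal response and -0.050 to 0.064 for Trp53inp1 in the difference. The cause was not tested. With the replicate block, 2570 genes and 2 p53 targets were called in the embryonic response, 2886 and 2 in the postnatal one and 3451 and 4 in their difference; the block changed no call of these genes. The labels state no pairing, and deviations of same-numbered arrays correlated at -0.116 to 0.115 over 10840 genes, with 1 of 10 pairs over 0.1. Signal over background limits Perp, with 18 of 20 arrays above it.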
